A study of Mus musculus with 6 samples.

Results

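A set of 10 chemokine-system genes was read across 3 subsets of mouse thymic endothelial cells (ECs): the atypical receptors Ackr1 and Ackr3, and the ligands Cxcl12, Ccl25, Cx3cl1, Cxcl16, Cxcl9, Cxcl10, Cxcl1 and Ccl2. They were taken by gene symbol from a table of 24457 genes, and all 10 were found. The subsets came from the thymus of wildtype female C57BL/6 mice aged 4 to 6 weeks. All cells were sorted as CD31+CD45-EpCAM-, and were then divided by the surface proteins Ly6C and P-selectin (Selp). Type I ECs were Ly6C+Selp-, type II ECs were Ly6C+Selp+ and type III ECs were Ly6C-Selp+. Each subset had 2 bulk RNA-seq libraries, named replicate 1 and replicate 2, and the labels gave a sort purity of at least 90%. The study asked how the lymphotoxin beta receptor of thymic ECs controls the homing of blood-borne progenitors. These libraries served to characterise the EC subsets, and no treatment or mutant was part of these 6 libraries. The labels did not say whether the replicates came from separate animals, so p-values measure the spread between libraries, which may be technical.

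Chemokines are small secreted proteins that direct leukocyte migration through G protein-coupled receptors, and many of them are held on the endothelial surface by heparan sulfate. Atypical chemokine receptors bind chemokines without the usual G protein signal, and instead internalise, transport or hold them. In the thymus, progenitors arrive from blood through vessels near the junction of cortex and medulla, and CXCL12 and CCL25, the ligands of CXCR4 and CCR9, are among the known guides of progenitors in this tissue.

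Levels are FPKM (fragments per kilobase of transcript, scaled to the mapped fragments of the library), which are scaled by gene length. Summed FPKM ran from 221458 to 300932 per library. Fragment numbers were read back from the widths of the confidence intervals in the files, as if these held counting error alone. They were 1452476 to 2423171 per library, and 3 fragments corresponded to a median of 0.317 to 0.545 FPKM. Pecam1, which encodes the CD31 used for sorting, led the endothelial markers, whose summed level was 1822 to 2345 FPKM in the 6 libraries. Of these 8, Kdr, the main VEGF receptor, fell by 1.49 on the log2 scale from type I to type III (limma adjusted p = 0.00794). Markers of other cells were present at lower levels. Summed haematopoietic markers were 264 and 447 FPKM in replicate 1 of types I and III, and 42.0 to 115 FPKM in the other 4 libraries, led by Lyz2. Summed lymphatic markers were 9.85 to 30.1 FPKM. None of the 10 haematopoietic or 4 lymphatic markers passed limma in any comparison, against 0 to 4 and 1 to 3 at an unadjusted p under 0.05. With the replicate block, none of the former passed, while the lymphatic Flt4 fell and Prox1 rose from type I to type III. All 10 haematopoietic markers nevertheless had positive log2 differences in type III, with medians of 0.95 against type I and 1.17 against type II. The medians over all tested genes were 0.08 and 0.14. Summed mesenchymal and mural markers were 269 and 602 FPKM in type I, 401 and 682 FPKM in type II, and 204 and 218 FPKM in type III. In these bulk samples, fewer cells of a type and less RNA per cell cannot be told apart.

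All 10 genes were above 1 FPKM in every library and passed the filter on low values. Differences were taken between means of log2(FPKM + 1), where the added 1 shrinks the change of low genes, and were tested with limma over 11717 genes with Benjamini-Hochberg adjustment and a threshold of 0.05. Ackr1 rose, and Cxcl12 and Cx3cl1 fell, in type III against type I. In that comparison 3 of 10 genes passed, where 4.14% of all tested genes did (2.09% higher and 2.05% lower). Ackr1 alone passed between type II and type I, where 0.393% of tested genes did (0.324% higher and 0.0683% lower). Cxcl12 alone passed between type III and type II, where 0.222% of tested genes did (0.0939% higher and 0.128% lower). The median size of the difference over the 10 genes was 0.99 for type III against type I, 0.72 for type II against type I and 0.81 for type III against type II, and the corresponding medians over all tested genes were 0.31, 0.25 and 0.29. The genes did not share a direction.

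Libraries with the same replicate number deviated together from their subset means, and a further limma fit took that number as a blocking term. With the block 6 of 10 genes passed between type III and type I, where 8.29% of tested genes did. The numbers were 4 of 10 and 1.56% for type II against type I, and 4 of 10 and 1.95% for type III against type II. The genes that passed only with the block are given with its adjusted p beside their results.

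Without the test, the 2 libraries of type III did not overlap those of type I for 8 of 10 genes, beside 37.9% of tested genes (20.7% higher and 17.1% lower). Ackr1, Ackr3, Cxcl16, Cxcl9 and Cxcl10 lay higher in type III, and Cxcl12, Cx3cl1 and Cxcl1 lay lower. Between type II and type I, 6 of 10 did not overlap, beside 33.6% of tested genes (13% higher and 20.6% lower). Ackr1, Cxcl9 and Cxcl10 lay higher in type II, and Ackr3, Cxcl12 and Cx3cl1 lay lower. Between type III and type II, 6 of 10 did not overlap, beside 41% of tested genes (27.7% higher and 13.3% lower). Ackr1, Ackr3 and Cxcl16 lay higher in type III, and Cxcl12, Cx3cl1 and Cxcl1 lay lower. The signed median over all tested genes was 0.14 for type III minus type II, 0.08 for type III minus type I and -0.06 for type II minus type I.

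**Figure D1:**
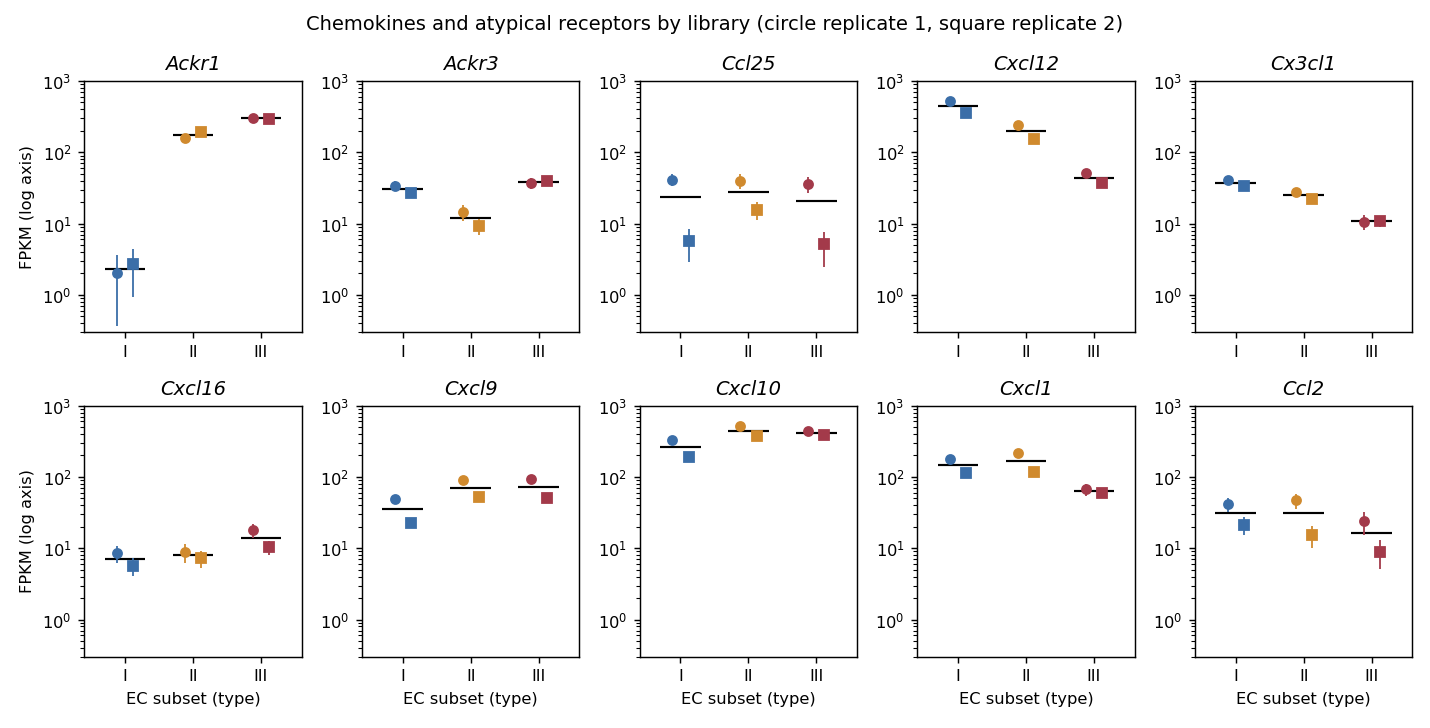
FPKM of the 10 genes in each of the 6 libraries on a log axis, with circles for replicate 1, squares for replicate 2, vertical lines for the deposited 95% intervals and a bar for the subset mean. Ackr1 climbs from 2.00 and 2.67 FPKM in type I to 306 and 297 FPKM in type III, while Cxcl12 falls from 521 and 360 FPKM to 50.6 and 36.8 FPKM.

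**Figure D2:**
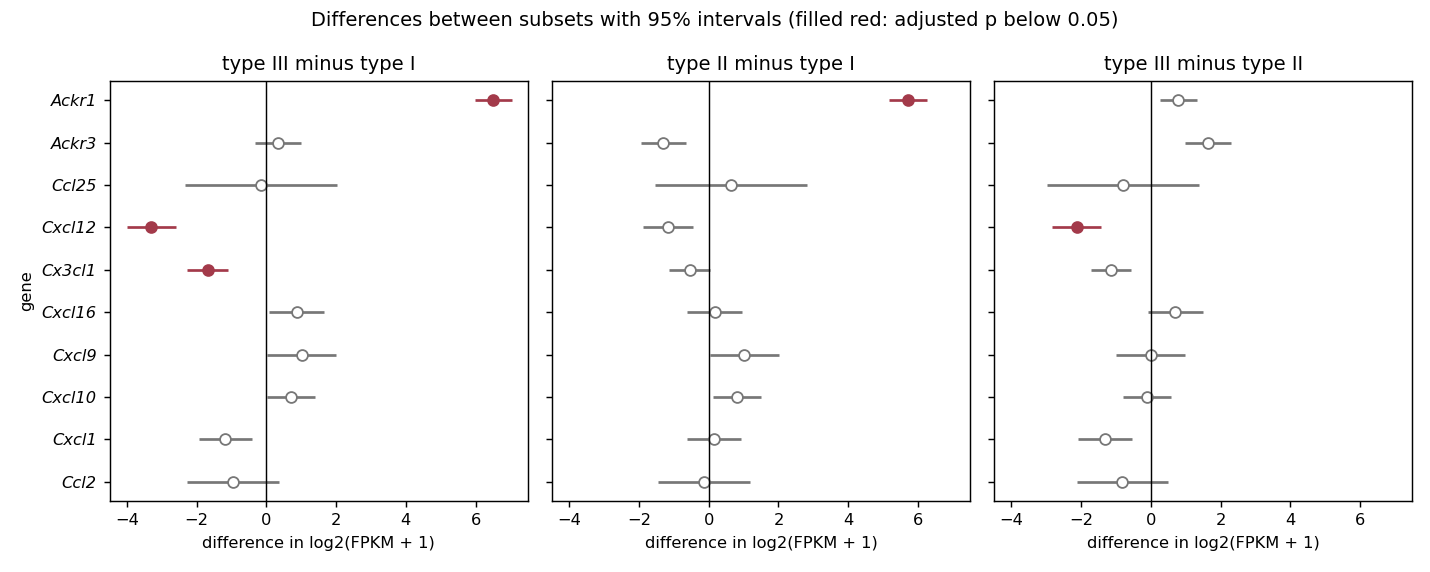
Difference in mean log2(FPKM + 1) for each gene in the 3 comparisons, with 95% confidence intervals from limma and filled points for genes past the adjusted threshold. Filled points are Ackr1 in both comparisons with type I, Cxcl12 in type III against either other subset, and Cx3cl1 in type III against type I.

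The largest difference belonged to Ackr1, also known as Darc, which encodes a receptor of venular endothelium and erythroid cells that binds many inflammatory CC and CXC chemokines and can carry them across the vessel wall. The files place Ackr1 at chr1:175262017-175263634 of the mm9 build. Its level was 2.00 and 2.67 FPKM in type I, 159 and 190 FPKM in type II, and 306 and 297 FPKM in type III. The 3 subsets did not overlap, and both Selp+ subsets lay far above type I. Type I values rested on about 6 and 10 read-back fragments, with deposited 95% intervals of 0.367 to 3.64 FPKM and 0.947 to 4.4 FPKM. Mean levels were 2.34 ± 0.474, 175 ± 22.0 and 302 ± 6.16 FPKM (SD, n = 2 libraries each). The ratio of means was 74.8 for type II over type I and 129 for type III over type I. On the log2 scale, Ackr1 was higher by 6.51 in type III than in type I (SE 0.24, limma adjusted p = 3.5e-06) and by 5.72 in type II than in type I (SE 0.24, limma adjusted p = 1.09e-05). Type III and type II differed by 0.79 (95% interval 0.25 to 1.33, limma adjusted p = 0.287), which did not pass.

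Promoter letters of this gene and of 4 ligands are printed because these genes carried the calls, or are the neighbouring pair of CXCR3 ligands. The windows are the 250 bases before the gene start in RefSeq on GRCm38.p6, a later build than the mm9 of the files, and were found for 8 of the 10 genes. Capitals mark matches to any of 4 motifs on either strand. The first was a TATA box, searched as TATAAA. The next was the core of an interferon response element, searched as a pair of GAAA words with 2 free bases between them. Another was a kappa B core, which begins with GGGA and after 2 free bases ends with the reverse complement of GGAA. The last was a GC box, searched as GGGCGG. Of all 32851 windows in the table, 12.4% held TATAAA, 2.98% held the interferon core, 1.21% held the kappa B core and 32.7% held GGGCGG. The Ackr1 window held none of these letters.
Ackr1, chr1:173333504-173333753, minus strand: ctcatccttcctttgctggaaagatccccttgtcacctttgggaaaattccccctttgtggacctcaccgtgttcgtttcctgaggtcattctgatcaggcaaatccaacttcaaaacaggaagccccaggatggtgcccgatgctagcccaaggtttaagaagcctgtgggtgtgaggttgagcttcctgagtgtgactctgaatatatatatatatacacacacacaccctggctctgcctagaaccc

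Ackr3, formerly Cxcr7, encodes the scavenging receptor for CXCL12 and CXCL11, and lies at chr1:92100555-92112297 of mm9. It was 34.1 and 27.0 FPKM in type I, 14.7 and 9.35 FPKM in type II, and 37.1 and 40.1 FPKM in type III. The type II libraries were the lowest and overlapped neither of the other subsets. Type II was below type I by -1.30 (95% interval -1.95 to -0.65, limma adjusted p = 0.139), and type III was above type II by 1.63 (95% interval 0.98 to 2.28, limma adjusted p = 0.0726), and neither passed. With the replicate block both passed (limma adjusted p = 0.0324 and 0.0153). The second difference also passed after rescaling the libraries by median of ratios (limma adjusted p = 0.0433) or by quantiles (limma adjusted p = 0.0371). Type III and type I differed by 0.33 (95% interval -0.31 to 0.98, limma adjusted p = 0.721). Both Ackr1 and Ackr3 were therefore at their highest mean in type III, but Ackr3 was lowest in type II where Ackr1 was already at 175 FPKM.

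Cxcl12, the ligand of CXCR4 and of the scavenger Ackr3, showed the reverse order to Ackr1. It lies at chr6:117118553-117131386 of mm9. Its level was 521 and 360 FPKM in type I, 245 and 152 FPKM in type II, and 50.6 and 36.8 FPKM in type III. The subsets did not overlap, and type I was highest. Means were 441 ± 114, 198 ± 65.7 and 43.7 ± 9.78 FPKM (SD, n = 2 libraries each), so that type I exceeded type III by a ratio of 10.1. The log2 difference was -3.30 for type III minus type I (SE 0.31, limma adjusted p = 0.000625). For type III minus type II it was -2.13 (95% interval -2.84 to -1.42, limma adjusted p = 0.0421), a ratio of means of 4.53. This second call held in 3 of 13 alternative settings, with adjusted p from 0.00147 to 0.285, and was lost when any of the 6 libraries was left out. Type II was below type I by -1.17 (95% interval -1.87 to -0.46), which did not pass (limma adjusted p = 0.244) but passed with the replicate block (limma adjusted p = 0.0145). Summed mesenchymal and mural markers, whose own cells also express Cxcl12, were 204 and 218 FPKM in type III against 269 to 682 FPKM in the other 4 libraries. Rgs5 made up much of that sum. Without it, a sum chosen after seeing the data, the other 7 gave 256 and 155 FPKM in type I, 398 and 264 FPKM in type II, and 155 and 172 FPKM in type III. On this sum type I and type III overlapped, while type III lay below type II without overlap. Of these 7, Pdgfrb was 39.0 and 24.2 FPKM in type I and 6.40 and 9.43 FPKM in type III. Acta2 and Dcn had positive differences between type III and type I. The part of these markers in the Cxcl12 difference was not tested. The Cxcl12 window held 5 matches to GGGCGG and none to the other letters.
Cxcl12, chr6:117168285-117168534, plus strand: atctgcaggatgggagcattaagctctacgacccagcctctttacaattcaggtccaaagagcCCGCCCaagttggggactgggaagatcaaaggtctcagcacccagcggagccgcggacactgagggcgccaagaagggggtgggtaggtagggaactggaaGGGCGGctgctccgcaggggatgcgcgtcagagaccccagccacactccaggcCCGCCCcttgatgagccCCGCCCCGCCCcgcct

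Ccl25, the ligand of CCR9 and a product of thymic epithelium, passed in no comparison and differed more between replicates than between subsets. It lies at chr8:4325210-4360020 of mm9. Its level was 41.4 and 5.67 FPKM in type I, 39.7 and 15.8 FPKM in type II, and 36.2 and 5.11 FPKM in type III. Replicate 1 was higher in every subset, by ratios of 7.30, 2.52 and 7.09, and the subsets overlapped. Only 0.222% of tested genes had log2 replicate differences whose lowest over the 3 subsets was as large. The deposited 95% intervals of the replicates did not overlap in any subset, for example 33.2 to 49.6 against 2.92 to 8.43 FPKM in type I. The log2 differences between subsets were -0.16, 0.64 and -0.79, with limma adjusted p from 0.854 to 0.993.

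Of 7 thymic epithelial markers, 6 were higher in replicate 1 of every subset. The exception was Krt8, at 11.6 and 12.4 FPKM in type II. Tested genes as a whole also leaned to replicate 1. Their median log2 difference between replicates 1 and 2 was 0.39 in type I, 0.14 in type II and 0.18 in type III. For 42.6% of tested genes the lowest of the 3 differences was at or above -0.027. Prss16, a serine protease of thymic cortical epithelium and the highest of the 7 epithelial markers, was 33.5 and 3.27 FPKM in type I, 33.9 and 16.0 FPKM in type II, and 34.1 and 3.84 FPKM in type III. The summed epithelial markers were 21.2 to 79.9 FPKM in type I, 33.7 to 57.2 FPKM in type II and 16.1 to 80.1 FPKM in type III, with replicate 1 the higher each time and Prss16 a large part of each replicate 1 sum. Epcam, the epithelial surface protein excluded by the sort, was 0.42 to 4.32 FPKM over the 6 libraries. None of the 7 epithelial markers passed limma in any comparison, against 1 in each at an unadjusted p under 0.05. Krt5 passed with the replicate block, lower than type I in type II (limma adjusted p = 0.0140) and in type III (limma adjusted p = 0.0498). The part of the epithelial markers in the Ccl25 values was not tested.

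**Figure D3:**
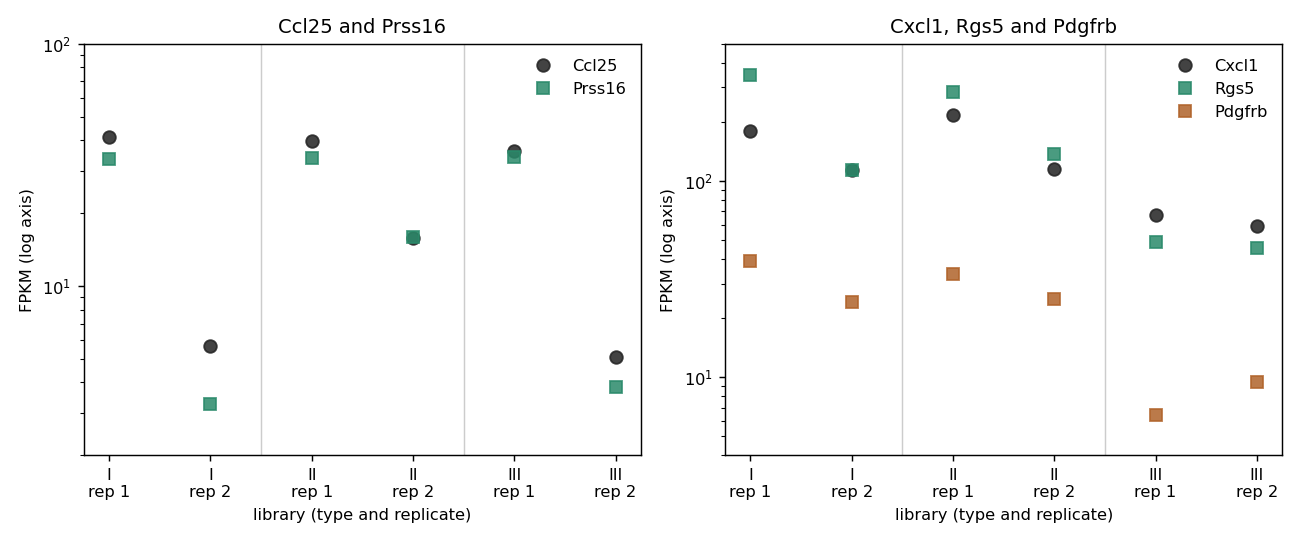
FPKM on log axes in each of the 6 libraries for Ccl25 beside the epithelial marker Prss16 (left) and for Cxcl1 beside the mural genes Rgs5 and Pdgfrb (right). Ccl25 and Prss16 lie close together in every library and are higher in replicate 1 of each subset. Cxcl1, Rgs5 and Pdgfrb have their lowest values in both type III libraries. The other 6 mesenchymal and mural markers, of which Acta2 and Dcn had positive differences between type III and type I, are not drawn.

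The 2 transmembrane ligands went in opposite directions by their means. Cx3cl1, or fractalkine, the ligand of CX3CR1 on monocytes, is anchored in the membrane and shed by ADAM10 and ADAM17. It lies at chr8:97296080-97306326 of mm9. Its level was 40.3 and 33.6 FPKM in type I, 28.0 and 22.1 FPKM in type II, and 10.6 and 10.8 FPKM in type III. The subsets did not overlap and kept the order seen for Cxcl12. Cx3cl1 fell by 1.69 on the log2 scale from type I to type III (SE 0.26, limma adjusted p = 0.00693), a ratio of means of 3.45. It lost the call when either type III library was left out, with limma adjusted p = 0.0559 without replicate 1 and 0.054 without replicate 2. The differences with type II, -0.54 from type I and -1.15 to type III, did not pass (limma adjusted p = 0.705 and 0.142). The second passed with the replicate block (limma adjusted p = 0.0320), after median-of-ratios scaling (0.0456) and after quantile normalization (0.0388). The Cx3cl1 window held 1 match to GGGCGG and 1 to TATAAA, the latter in its last 6 bases.
Cx3cl1, chr8:94771930-94772179, plus strand: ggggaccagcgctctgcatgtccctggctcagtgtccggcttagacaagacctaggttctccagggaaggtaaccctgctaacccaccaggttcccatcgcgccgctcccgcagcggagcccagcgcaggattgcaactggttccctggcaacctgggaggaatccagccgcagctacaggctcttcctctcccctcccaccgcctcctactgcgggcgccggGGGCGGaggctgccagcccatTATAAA

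Cxcl16, the ligand of CXCR6, had the lowest mean of the 8 ligands in type I. It lies at chr11:70267736-70273486 of mm9, where 363 bases are shared with the Zmynd15 locus. Its level was 8.51 and 5.68 FPKM in type I, 8.81 and 7.18 FPKM in type II, and 17.9 and 10.2 FPKM in type III. The type III libraries lay above the other 4, but the differences of 0.87 from type I (95% interval 0.09 to 1.65, limma adjusted p = 0.289) and 0.70 from type II (95% interval -0.08 to 1.48, limma adjusted p = 0.557) did not pass. Haematopoietic cells also express Cxcl16, and the higher type III library was the one with 447 FPKM of summed haematopoietic markers. Their part was not tested.

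Cxcl9 and Cxcl10 are interferon-induced ligands of CXCR3, the receptor of activated T cells and natural killer cells, and are neighbours on the same chromosome. Cxcl9 lies at chr5:92750357-92757105 and Cxcl10 at chr5:92775665-92777915 of mm9. Cxcl9 was 48.9 and 22.3 FPKM in type I, 89.3 and 52.2 FPKM in type II, and 92.6 and 49.9 FPKM in type III. Cxcl10 was 331 and 192 FPKM in type I, 519 and 378 FPKM in type II, and 438 and 388 FPKM in type III. For both genes the Selp+ subsets lay above type I without overlap and overlapped each other. The log2 difference of Cxcl9 from type I was 1.02 in type II (95% interval 0.04 to 2.01) and 1.02 in type III (95% interval 0.03 to 2.01). Neither passed (limma adjusted p = 0.644 and 0.336), and both passed with the replicate block (limma adjusted p = 0.0333 and 0.00910). That of Cxcl10 was 0.81 in type II (95% interval 0.12 to 1.5) and 0.71 in type III (95% interval 0.02 to 1.40), and neither passed (limma adjusted p = 0.547 and 0.336). Between type III and type II the differences were -0.01 for Cxcl9 (95% interval -1 to 0.98) and -0.10 for Cxcl10 (95% interval -0.79 to 0.59), with intervals that reach about 1 log2 unit for Cxcl9.

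The summed level of the interferon-inducible genes fixed for this comparison did not follow that pattern. It was 791 and 1199 FPKM in type I, 854 and 1086 FPKM in type II, and 857 and 1084 FPKM in type III. None of the 19 tested genes of that list passed limma in any comparison, against 1 or 2 at an unadjusted p under 0.05. Rsad2, an antiviral enzyme, fell from type I to type III with the replicate block (limma adjusted p = 0.00871). Irf1, an interferon-induced transcription factor, was the most highly expressed. The whole of the Cxcl10 locus, 2251 bases, lies inside that of Art3, and the sources used here did not say whether counting used strand. Art3 was 18.5 and 11.1 FPKM in type I, 9.32 and 7.12 FPKM in type II, and 0.986 and 2.09 FPKM in type III. Whether fragments of the 2 genes were exchanged was not tested. The windows are printed as the neighbouring pair. That of Cxcl9 held 1 TATAAA, while that of Cxcl10 held 1 interferon core and 1 kappa B core.
Cxcl9, chr5:92328080-92328329, minus strand: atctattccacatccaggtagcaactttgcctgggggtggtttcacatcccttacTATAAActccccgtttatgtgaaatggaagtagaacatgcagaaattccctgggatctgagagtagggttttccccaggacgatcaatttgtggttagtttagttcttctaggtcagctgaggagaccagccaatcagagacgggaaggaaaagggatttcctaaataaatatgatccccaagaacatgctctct
Cxcl10, chr5:92348890-92349139, minus strand: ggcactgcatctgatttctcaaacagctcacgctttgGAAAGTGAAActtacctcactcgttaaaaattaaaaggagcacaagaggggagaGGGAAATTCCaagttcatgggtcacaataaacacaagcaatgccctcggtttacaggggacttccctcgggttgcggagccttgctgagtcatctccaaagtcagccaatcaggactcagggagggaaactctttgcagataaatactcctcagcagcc

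Cxcl1 and Ccl2 are inflammatory ligands that recruit neutrophils through CXCR2 and monocytes through CCR2. Cxcl1 lies at chr5:91320271-91322141 and Ccl2 at chr11:81849079-81850954 of mm9. Cxcl1 was 181 and 114 FPKM in type I, 216 and 116 FPKM in type II, and 67.0 and 59.2 FPKM in type III. Type III lay below both other subsets, and these overlapped. Type III was below type I by -1.17 (95% interval -1.95 to -0.40, limma adjusted p = 0.113) and below type II by -1.32 (95% interval -2.09 to -0.54, limma adjusted p = 0.205), and neither passed. Both passed with the replicate block (limma adjusted p = 0.00971 and 0.0247) and after rescaling of the libraries. By median of ratios, the limma adjusted p was 0.0208 against type I and 0.0466 against type II. By quantiles, it was 0.0185 and 0.0388.

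Ccl2 was 41.8 and 21.2 FPKM in type I, 46.8 and 15.2 FPKM in type II, and 24.0 and 8.99 FPKM in type III. Replicate 1 was higher by ratios of 1.97, 3.07 and 2.67, and all 3 subsets overlapped. The difference of type III from type I was -0.96 (95% interval -2.28 to 0.35, limma adjusted p = 0.559), and passed with the replicate block (limma adjusted p = 0.0267). Fibroblasts and mural cells also make both ligands. Rgs5, a pericyte gene and the highest mural marker, was 346 and 114 FPKM in type I, 284 and 137 FPKM in type II, and 48.6 and 45.4 FPKM in type III. Of the 8 mesenchymal and mural markers 1 passed, Pdgfrb, which fell by 1.85 on the log2 scale from type I to type III (limma adjusted p = 0.0132). Rgs5, at -2.06, passed with the replicate block (limma adjusted p = 0.00509 against 0.0575 without it). From type I to type III the other 6 did not share one direction. Acta2, the smooth muscle actin, was 13.7 and 7.53 FPKM in type I and 16.9 and 33.8 FPKM in type III, a log2 difference of 1.16 that did not pass (limma adjusted p = 0.177), and Dcn differed by 0.23. Pdgfra, Col3a1, Col1a1 and Cspg4 differed by -0.16, -0.52, -0.36 and -0.86. From type II to type III, in contrast, all 8 markers fell, with a median log2 difference of -1.05 beside 0.14 over all tested genes. None passed there without the block, against 6 at an unadjusted p under 0.05. Pdgfrb and Rgs5 passed there with the block (limma adjusted p = 0.0267 and 0.0234). The part of these cells in the Cxcl1 and Ccl2 values was not tested. Early response genes, which tissue digestion can induce, summed to 5662 and 7250 FPKM in type I, 5783 and 6245 FPKM in type II, and 5313 and 6057 FPKM in type III, led by Egr1. Of that list, Ptgs2 rose by 1.99 (limma adjusted p = 0.0303) and Dusp1 fell by 1.25 on the log2 scale (limma adjusted p = 0.0151) from type I to type III, and these were singled out after their values were seen. The block gave 1 that rose and 4 that fell.

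Cxcl12 led type I, and Cxcl10 led type II and type III. In type I, Cxcl12, Cxcl10 and Cxcl1 followed each other without overlap of their libraries, and Cx3cl1, Cxcl9, Ccl2, Ackr3 and Ccl25 came next with overlapping values. Cxcl16 overlapped Ccl25, and Ackr1 was last. In type II, Cxcl10 stood above Cxcl12, Ackr1 and Cxcl1, which overlapped each other. Cxcl9 followed, then Ccl2, Ccl25 and Cx3cl1 with overlapping values, and then Ackr3 and Cxcl16 without overlap. In type III, Cxcl10 and Ackr1 stood apart in that order. Cxcl9 overlapped Cxcl1 and Cxcl12, Cxcl12 overlapped Ackr3, and Ccl25, Ccl2, Cxcl16 and Cx3cl1 formed an overlapping group at the bottom.

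The make-up of the 8 ligands shifted more than their sum. Their summed FPKM was 754 and 1214 in type I, 758 and 1192 in type II, and 569 and 737 in type III. Cxcl12 made up 42.9% to 47.8% of the sum in type I, 20.0% to 20.5% in type II and 6.47% to 6.87% in type III. Cxcl10 made up 25.4% to 27.3%, 43.5% to 49.9% and 59.4% to 68.2%. For both ligands the 3 subsets did not overlap, and the replicates of a subset lay closer on this scale than their FPKM did for Cxcl12. Cxcl9 made up 2.95% to 4.02% in type I, 6.89% to 7.49% in type II and 8.77% to 12.6% in type III. Cx3cl1 fell from 3.32% to 4.45% in type I to 1.44% to 1.90% in type III, while Cxcl16 was 0.700% to 0.753% and 1.8% to 2.42%. Cxcl1 held 14.9% to 18.1% in the Ly6C+ subsets and 9.09% to 10.4% in type III. Shares sum to a whole within a library, so a rise of one ligand lowers the others and a fall raises them. From type II to type III the shares of Cxcl10 and Cxcl9 rose, while their FPKM overlapped. Shares were not tested.

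**Figure D4:**
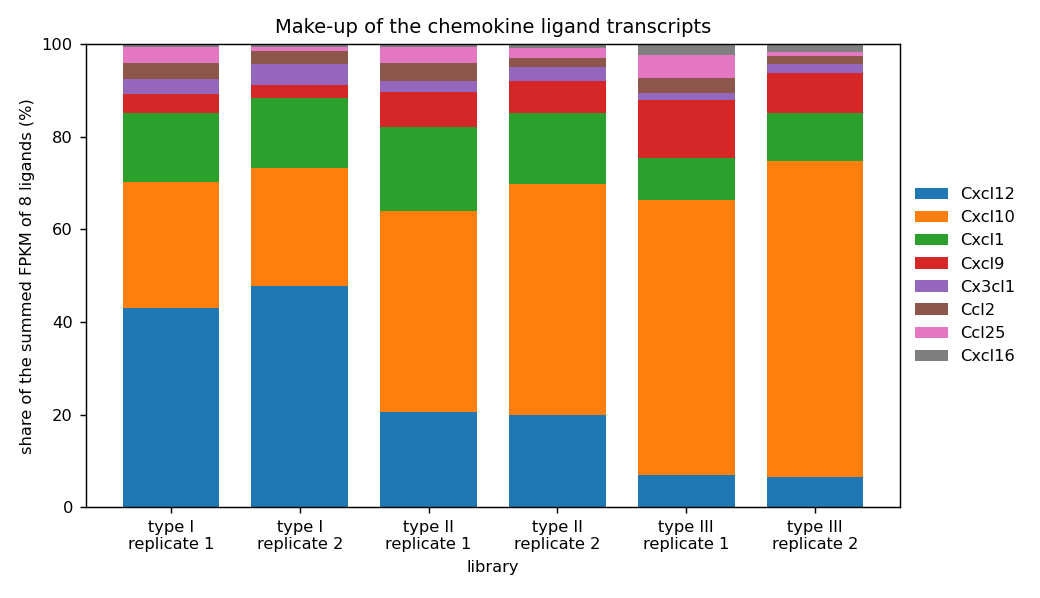
Share of each of the 8 ligands in their summed FPKM, in percent, as 1 stacked bar per library. Cxcl12 narrows from 42.9% to 47.8% in type I to 6.47% to 6.87% in type III, and Cxcl10 widens from 25.4% to 27.3% to 59.4% to 68.2%.

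The rest of the chemokine system passed in no comparison without the replicate block. Of 29 other ligands, 14 passed the filter and 0 passed the limma test, against 4, 1 and 3 at an unadjusted p under 0.05 for type III minus type I, type II minus type I and type III minus type II. The highest was Ccl11, or eotaxin, at 50.2 and 12.9 FPKM in type I, 63.9 and 19.8 FPKM in type II, and 25.3 and 9.80 FPKM in type III. It was higher in replicate 1 of each subset, as Ccl2 was. With the replicate block Ccl11 was lower in type III than in type II by -1.13 (limma adjusted p = 0.0410), and Cxcl2, a CXCR2 ligand like Cxcl1, was lower in type III than in type I by -1.24 (limma adjusted p = 0.0435). Ccl19, Ccl20, the Ccl21 copies and Cxcl15 were listed at 0 in every library, and Ccl19 and the Ccl21 genes have near-identical copies whose reads may not be assigned. Of 18 signalling receptors, 5 passed the filter, led by Cxcr4, the receptor for CXCL12, at 5.23 to 13.8 FPKM over the 6 libraries. None of the 5 passed the limma test, against 2, 0 and 2 at an unadjusted p under 0.05. Of 4 other atypical receptors or relatives, 3 passed the filter, led by Ccrl2, which binds chemerin, at 20.0 and 13.0 FPKM in type I, 16.3 and 9.73 FPKM in type II, and 9.58 and 6.77 FPKM in type III. None of the 3 passed the limma test, against 2, 0 and 1 at an unadjusted p under 0.05. With the replicate block Ccrl2 was lower in type III than in type I by -0.92 (limma adjusted p = 0.0300).

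Genes that build, edit or shed the surface on which chemokines are held were read as a list of 18, all of which passed the filter. From type I to type III 2 rose and 0 fell. Sulf1, which encodes an extracellular sulfatase that removes 6-O-sulfates from heparan sulfate, was 4.12 and 3.14 FPKM in type I, 8.64 and 6.87 FPKM in type II, and 29.8 and 36.3 FPKM in type III. The subsets did not overlap. Sulf1 was higher in type III by 2.88 than in type I (SE 0.29, limma adjusted p = 0.000783) and by 1.96 than in type II (limma adjusted p = 0.0421). Hs3st1, a heparan sulfate 3-O-sulfotransferase, was 12.2 and 10.3 FPKM in type I, 14.5 and 16.9 FPKM in type II, and 39.8 and 46.2 FPKM in type III. It rose by 1.84 from type I to type III (SE 0.26, limma adjusted p = 0.00453), and its difference of 1.40 between type III and type II did not pass (limma adjusted p = 0.0775) but passed with the replicate block (limma adjusted p = 0.0220). The block added Sulf2, a second heparan sulfatase, higher in type III than in type I by 1.58 (limma adjusted p = 0.0277), and the proteoglycan Sdc3, lower by -0.72 (limma adjusted p = 0.0426). Sdc3 was also lower in type II than in type I with the block, by -0.96 (limma adjusted p = 0.0399). Adam10, the sheddase of Cx3cl1 and Cxcl16, was the highest of the list at 27.3 to 62.9 FPKM and passed in no comparison with or without the block.

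The genes whose pattern was most like that of the 3 members with a call were found by Pearson correlation of log2(FPKM + 1) over the 6 libraries, among 4196 genes with a mean of at least 10 FPKM. The points share subsets and libraries, so the coefficients are descriptions. A pattern shared with the member follows from this choice of genes. For Ackr1 they were Gm16548 (r = 0.999), Pdia5 (r = 0.998) and Rcan1 (r = 0.997). The Gm16548 locus overlaps that of Selp by 1451 bases, and Selp, whose protein was used in the sort, was 7.87 and 5.20 FPKM in type I, 313 and 416 FPKM in type II, and 526 and 657 FPKM in type III. Rcan1, an inhibitor of calcineurin, was 28.2 and 26.0 FPKM in type I, 246 and 232 FPKM in type II, and 320 and 358 FPKM in type III. On the log2 scale both climbed more from type I to type II than from type II to type III, as Ackr1 did.

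For Cxcl12 the nearest genes were Pparg (r = 0.997), Clic5 (r = 0.997) and Aqp7 (r = 0.996). Pparg, a nuclear receptor of lipid metabolism, was 29.5 and 25.8 FPKM in type I, 20.6 and 16.9 FPKM in type II, and 8.63 and 6.72 FPKM in type III. Aqp7, a water and glycerol channel, was 69.4 and 49.7 FPKM in type I, 20.7 and 11.3 FPKM in type II, and 1.73 and 0.223 FPKM in type III. For Cx3cl1 they were Uaca (r = 0.999), Aplnr (r = 0.997) and Kifc3 (r = 0.995). Aplnr, the apelin receptor, was 127 and 102 FPKM in type I, 77.0 and 66.3 FPKM in type II, and 26.3 and 29.9 FPKM in type III. All 6 of these genes, picked for their likeness in these same libraries, had their highest values in type I and their lowest in type III.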

How the data were processed

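Endothelial cells of the thymus were released by collagenase I, dispase I and DNase I digestion and sorted by flow cytometry, and total RNA of 6 libraries was sequenced. The authors deposited 1 table of FPKM with 95% intervals per library. The submitters' processing notes name CASAVA 1.8, TopHat2 2.0.10, Cufflinks 2.1.1 and Cuffdiff, and the mm9 build. The gene annotation and the use of strand were not given in the sources used here. FPKM were used as deposited, not rescaled between libraries, and 95 spike-in and reporter rows were left out. Genes with at least 1 FPKM in at least 2 libraries were fitted with limma 3.58.1 (R 4.3.3) on log2(FPKM + 1), with a mean per subset over all 6 libraries, eBayes with trend and Benjamini-Hochberg adjustment at 0.05. FPKM are not counts, so no count test was run. An exact permutation test of 2 against 2 libraries cannot go below p = 0.33. The fit was tested on simulated data with 200 genes changed between type I and type III by at least 2 log2 units. It recovered 66.5% of them. Of the genes called there, 2.92% were unchanged. Smaller changes were not simulated, and every member difference that did not pass was smaller. The simulated spread was capped below that of Ccl25, Ccl2 and Cxcl9, so recovery of genes that vary as much was not tested. The intervals cover counting and assignment error only.

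Every member was named. From the lists of other ligands, receptors, atypical receptors and presentation genes, each gene past the threshold and the most highly expressed were named. From the marker, interferon and early response lists, the most highly expressed was named. The genes Pdgfrb and the other mural markers, Epcam, Krt8, Ptgs2, Dusp1, Kdr, Art3, Selp and the ligands listed at 0 were added after their values were seen. For each member with a call, the 3 genes of highest correlation were listed. The members and lists were chosen with earlier results of these data known. The alternatives were a pseudocount of 0.1, no filter, median-of-ratios scaling, quantile normalization, a replicate block, no trend, the compared libraries alone and leaving out each library in turn. The pairing comes from the replicate numbers of the labels, which do not say what a number shares. For libraries of the same number, deviations from the subset mean correlated across genes at 0.20 between types I and II, 0.31 between I and III and 0.18 between II and III. The fit without the block was the planned one. Genes that passed only with the block were named after their values were seen. Promoter sequences came from RefSeq (GRCm38.p6).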

Additional observations from a re-analysis of the deposited data

How the results depend on the processing

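The calls of Ackr1 against type I in types II and III, and of Cxcl12 between types III and I, held in all 13 alternatives, and that of Cx3cl1 between types III and I in 11. Over the settings other than leaving out a library, no member changed direction. In the main fit 485 genes passed for type III minus type I, 46 for type II minus type I and 26 for type III minus type II, and the members past the threshold numbered 3, 1 and 1. Type III minus type II gave 0 members with a pseudocount of 0.1, with no filter (all genes 317, 12 and 0), with no trend (15 genes for type II minus type I and 10 for type III minus type II) and with only the libraries compared (29 and 7). It gave 4 members after median-of-ratios scaling and 4 after quantile normalization. Median-of-ratios scaling gave 95 genes for type II minus type I (66 higher, 29 lower, against 38 higher and 8 lower) and 84 for type III minus type II (23 higher, 61 lower, against 11 higher and 15 lower). Quantile normalization gave 102 (72 higher, 30 lower) and 89 (21 higher, 68 lower). Under no filter more genes were tested, and the other causes were not tested. At an unadjusted p under 0.05, 1648, 877 and 1170 genes passed.

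With the replicate number as a block, 971, 183 and 229 genes passed, and 6, 4 and 4 members. These fits added calls and ended none among the members.

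Leaving out each library in turn, with the lone library of a subset assumed to vary like the others, gave 209 to 404 genes for type III minus type I, 12 to 33 for type II minus type I and 2 to 14 for type III minus type II. Members past the threshold were 2 to 3, 1 and 0. Members not past the threshold changed direction as follows. For type III minus type I, Ccl25 ran from -1.49 to 1.18. For type II minus type I, Ccl25 ran from -0.70 to 1.97, Cxcl16 from -0.086 to 0.42, Cxcl1 from -0.31 to 0.59 and Ccl2 from -0.93 to 0.63. For type III minus type II, Ccl25 ran from -2.10 to 0.51, Cxcl9 from -0.44 to 0.43 and Cxcl10 from -0.33 to 0.12. The number of libraries and a depth of a few fragments for Ackr1 in type I limit the precision.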
